A study of Mus musculus with 9 samples.

Results

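The 10 genes described here belong to the switch that admits cells to the cell cycle and were measured in posterior progenitors made from mouse embryonic stem cells. They were chosen by symbol from the 24736 genes of the expression table. They are 5 inhibitors of cyclin-dependent kinases (Cdkn1b, Cdkn2a, Cdkn2b, Cdkn2c and Cdkn2d), 3 D cyclins (Ccnd1, Ccnd2 and Ccnd3) and 2 Myc genes (Myc and Mycn). All 10 had counts in all 9 libraries, although Cdkn2c had only 8 to 26. The cells were caudal epiblast-like cells (CEpiLCs), grown for 2 days in bFGF at 10 ng per ml with LGK974 at 5 uM, which inhibits the secretion of WNT proteins, and for a last day also with CHIR99021, a GSK3 inhibitor used to activate WNT signalling. Cells were collected at 72 h, on day 3, from 3 biological replicates each of wild type (WT), of a mutant lacking Cdx1, Cdx2 and Cdx4 (CdxKO) and of a mutant lacking T, also called Bra (T/BraKO). WT was the XY line HM1 carrying a TetON cassette. The stem cells had been kept on inactivated fibroblasts, which were depleted by repeated plating before differentiation.

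D cyclins bind CDK4 and CDK6, and the active kinases phosphorylate the retinoblastoma protein, which releases E2F factors and lets a cell enter S phase. The INK4 inhibitors (encoded by Cdkn2a, Cdkn2b, Cdkn2c and Cdkn2d) block CDK4 and CDK6 directly, while p27, encoded by Cdkn1b, acts mainly on cyclin E and cyclin A complexes with CDK2. MYC and MYCN are transcription factors that raise the expression of genes for ribosome production, metabolism and growth, and Mycn is the form best known from embryonic progenitors. In mouse embryonic stem cells, G1 is short and INK4 inhibitors are weakly expressed.

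Cdkn2a and Cdkn2b are neighbours on chromosome 4. In the RefSeq annotation of GRCm38.p6, Cdkn2a lies at positions 89274473 to 89294619 and Cdkn2b at positions 89306289 to 89311032, both on the minus strand. Cdkn2a has 2 transcript starts, 12427 bases apart, and its upstream start lies 16413 bases downstream of the start of Cdkn2b. The transcript from the upstream start encodes p19ARF and the one from the downstream start encodes p16INK4a, and the gene-level counts pool them. Mycn lies on chromosome 12 at positions 12936093 to 12941836, also on the minus strand. The 250 bases before these 4 starts are printed because Cdkn2a and Cdkn2b differed between CdxKO and T/BraKO in both fits described below, and Mycn in the fit with the replicate number as a block. Each is written 5′ to 3′ on the strand of the gene, from RefSeq on GRCm38.p6, with letters that matched a searched motif in capitals.
Cdkn2b, chr4:89311033-89311282, minus strand: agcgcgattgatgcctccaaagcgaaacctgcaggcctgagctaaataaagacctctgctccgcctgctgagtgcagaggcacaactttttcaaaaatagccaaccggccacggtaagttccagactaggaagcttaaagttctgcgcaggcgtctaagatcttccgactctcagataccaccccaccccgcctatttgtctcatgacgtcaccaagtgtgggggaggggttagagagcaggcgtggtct
Cdkn2a upstream start, chr4:89294620-89294869, minus strand: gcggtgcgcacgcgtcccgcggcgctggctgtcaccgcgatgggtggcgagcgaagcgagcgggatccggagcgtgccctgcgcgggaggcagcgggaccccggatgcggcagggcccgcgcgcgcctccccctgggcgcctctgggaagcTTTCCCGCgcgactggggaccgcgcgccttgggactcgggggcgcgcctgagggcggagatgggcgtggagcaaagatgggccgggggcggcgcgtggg
Cdkn2a downstream start, chr4:89282193-89282442, minus strand: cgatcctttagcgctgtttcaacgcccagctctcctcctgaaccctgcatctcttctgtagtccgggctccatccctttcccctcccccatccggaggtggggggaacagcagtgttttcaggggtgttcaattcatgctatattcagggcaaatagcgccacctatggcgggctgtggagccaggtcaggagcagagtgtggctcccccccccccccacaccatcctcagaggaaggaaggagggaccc
Mycn, chr12:12941837-12942086, minus strand: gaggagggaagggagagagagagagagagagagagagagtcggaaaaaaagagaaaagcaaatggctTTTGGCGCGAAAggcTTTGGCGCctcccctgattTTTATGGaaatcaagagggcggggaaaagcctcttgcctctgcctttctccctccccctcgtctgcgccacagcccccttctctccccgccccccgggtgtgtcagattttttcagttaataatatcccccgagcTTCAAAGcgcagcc

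The motifs searched on both strands were the TCF/LEF motif CTTTGAA or CTTTGAT, the CDX motif TTTATNG, the T-box half-site AGGTGTGA, the E-box CACGTG bound by MYC, and the E2F motif TTTGGCGC, TTTCGCGC, TTTCCCGC or TTTGCCGC. The Mycn window held 3 E2F matches, of which 2 overlapped, 1 CDX match that ended 143 bases before the start and 1 TCF/LEF match that ended 8 bases before it. The window of the upstream Cdkn2a start held 1 E2F match, and the windows of the downstream Cdkn2a start and of Cdkn2b held none of the letters searched. Of 32851 RefSeq promoter windows of the same length, 7.48% held the TCF/LEF letters, 9.81% the CDX letters, 1.12% the T-box letters, 6.02% the E-box letters and 1.86% the E2F letters. A match is a description of the letters, not of binding. Windows were also searched for Cdkn1b on chromosome 6, Cdkn2c on chromosome 4, Cdkn2d on chromosome 9 and Ccnd3 on chromosome 17, and none held a match.

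Library totals ran from 25124344 to 34705361 expected counts. The genotypes were first checked against the targeted genes. Cdx4 had at most 2 counts in a CdxKO library, with a mean of 1.64 normalised counts against 118 in WT. Cdx2 and Cdx1 both fell in CdxKO against WT (log2 fold changes -2.03 and -0.98, DESeq2 adjusted p 0.0147 and 0.00372), and T fell by 2.42 on the log2 scale (adjusted p 7.83e-10) in T/BraKO. Markers of the caudal epiblast were expressed in every library, with a summed level of 747 to 1368 TPM (transcript abundance scaled for length and library total) over 10 genes. The Y-linked gene Ddx3y had 0 counts in each CdxKO library, against 1479 to 1876 in WT and 1919 to 3070 in T/BraKO. Hprt, named after its values were seen, had mean levels of 1.19 TPM in WT, 1.22 TPM in CdxKO and 210 TPM in T/BraKO. Each mutant thus differed from WT at a gene other than those targeted, CdxKO at Ddx3y and T/BraKO at Hprt. The causes were not tested. Each genotype was represented by 1 line as far as the labels say, so a difference between lines and an effect of the mutation cannot be told apart.

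The D cyclins were the most abundant of the 10 genes and the INK4 genes the least. In WT, mean levels in TPM (n = 3) followed the order Ccnd2 (195 ± 48.3 SD), Ccnd3 (121 ± 2.81), Ccnd1 (103 ± 18.3), Mycn (40.3 ± 13.1), Cdkn1b (31.7 ± 5.33), Myc (16.2 ± 10.0), Cdkn2d (13.6 ± 1.29), Cdkn2a (7.40 ± 1.42), Cdkn2b (4.62 ± 0.776) and Cdkn2c (0.720 ± 0.233). Of neighbours in this order, only Mycn and Cdkn1b, and Myc and Cdkn2d, had ranges that overlapped in WT. In CdxKO the mean of Cdkn1b stood above that of Mycn, with ranges of 32.1 to 34.4 and 16.1 to 30.6 TPM that did not overlap. In T/BraKO, Myc stood above Cdkn1b, with overlapping ranges.

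**Figure D1:**
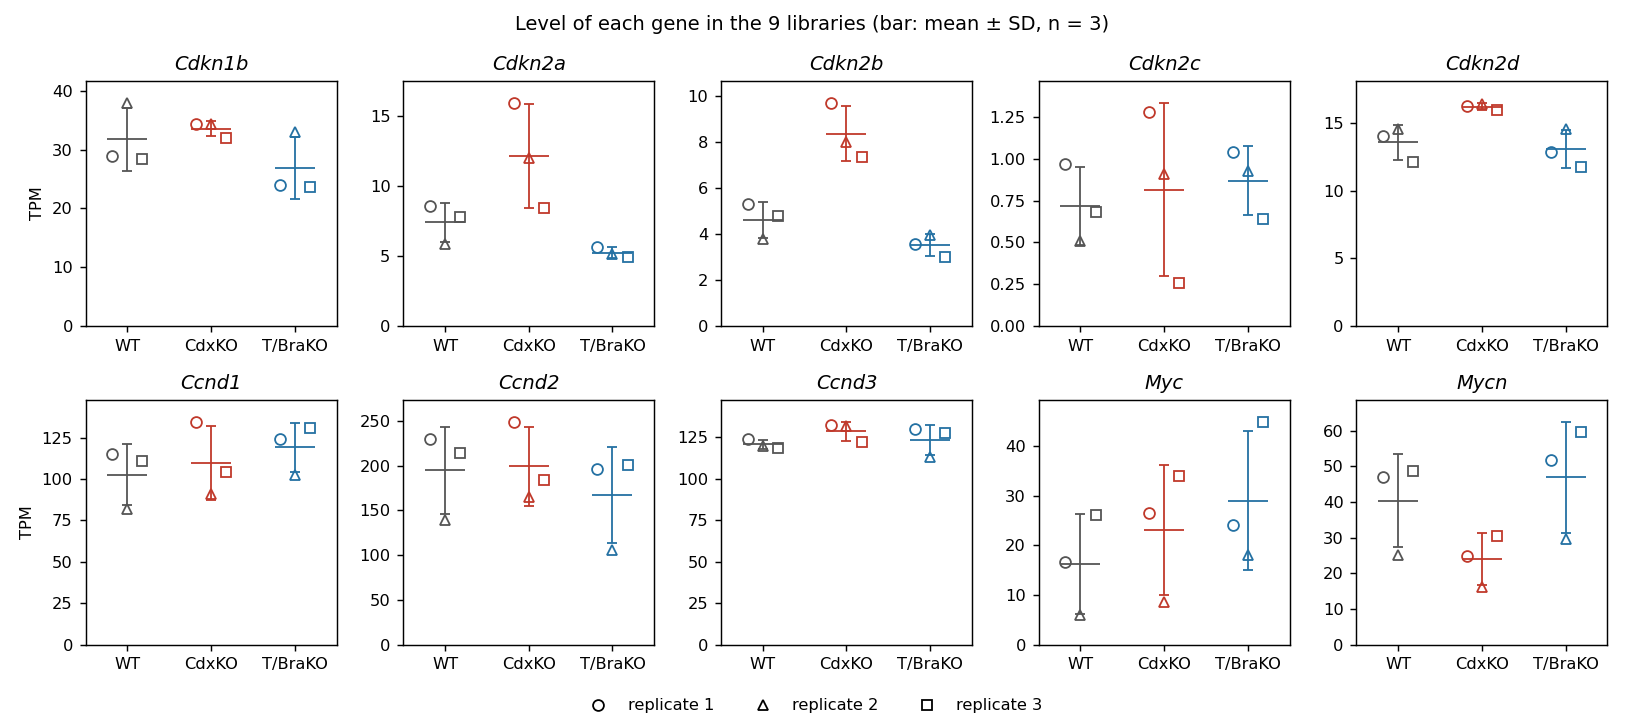
Level of each of the 10 genes in TPM (vertical axis, linear, from 0) in each library of WT, CdxKO and T/BraKO; symbols mark the replicate number, and bars the mean ± SD of 3 libraries. Cdkn2b was at 7.36 to 9.68 TPM in CdxKO, above all WT and T/BraKO libraries, and replicate 2 (triangles) had the lowest Myc and Mycn in each genotype.

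Libraries with the same replicate number resembled each other, so each comparison was fitted with genotype alone and again with the replicate number as a block. Replicate 2 had the lowest normalised counts of Ccnd1, Ccnd2, Myc and Mycn in all 3 genotypes. For Myc, the mean level differed 3.60-fold between the highest and lowest replicate number and 2.00-fold between the highest and lowest genotype. For Mycn both spreads were 2.00-fold and 1.99-fold. Cdkn2b showed the opposite balance, with 1.18-fold between replicate numbers and 2.30-fold between genotypes, and Cdkn2a likewise had 1.298-fold and 2.18-fold. Ccnd2 differed 1.69-fold between replicate numbers and 1.19-fold between genotypes.

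**Figure D2:**
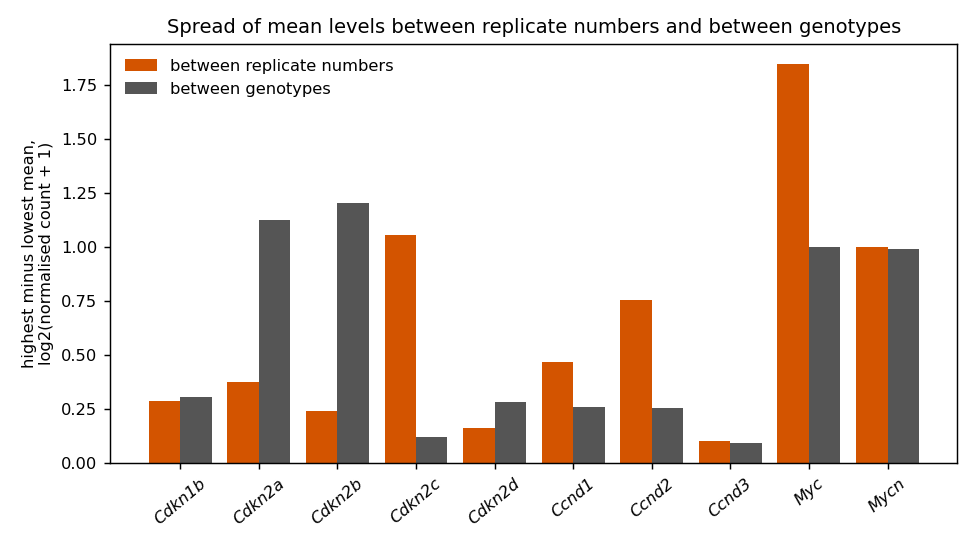
Difference between the highest and the lowest mean level of each gene, on the scale log2(normalised count + 1) (vertical axis, from 0), between the 3 replicate numbers (orange) and between the 3 genotypes (grey). Myc differed most between replicate numbers (1.85), and Cdkn2b most between genotypes (1.20).

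The first comparison set the CdxKO line against WT. With genotype alone, DESeq2 called 1 of the 10 genes, Cdkn2b, which was higher in CdxKO, against a background of 0.695% of the 16701 genes tested. With the replicate block it called 2 of the 10, Cdkn2b higher and Mycn lower, against a background of 5.37%. The second comparison set the T/BraKO line against WT. With genotype alone, DESeq2 called 0 of the 10 genes (background 1.08%), none had an unadjusted p under 0.05 and edgeR also called 0. With the block, DESeq2 called Ccnd1, Myc and Mycn, all higher in T/BraKO, against a background of 9.43%. Compared directly, CdxKO had higher Cdkn2a and Cdkn2b than T/BraKO with genotype alone (2 of 10, background 3.49%), and with the block also higher Cdkn1b and lower Mycn (4 of 10, background 14.7%). These comparisons share libraries and are not independent of each other.

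**Figure D3:**
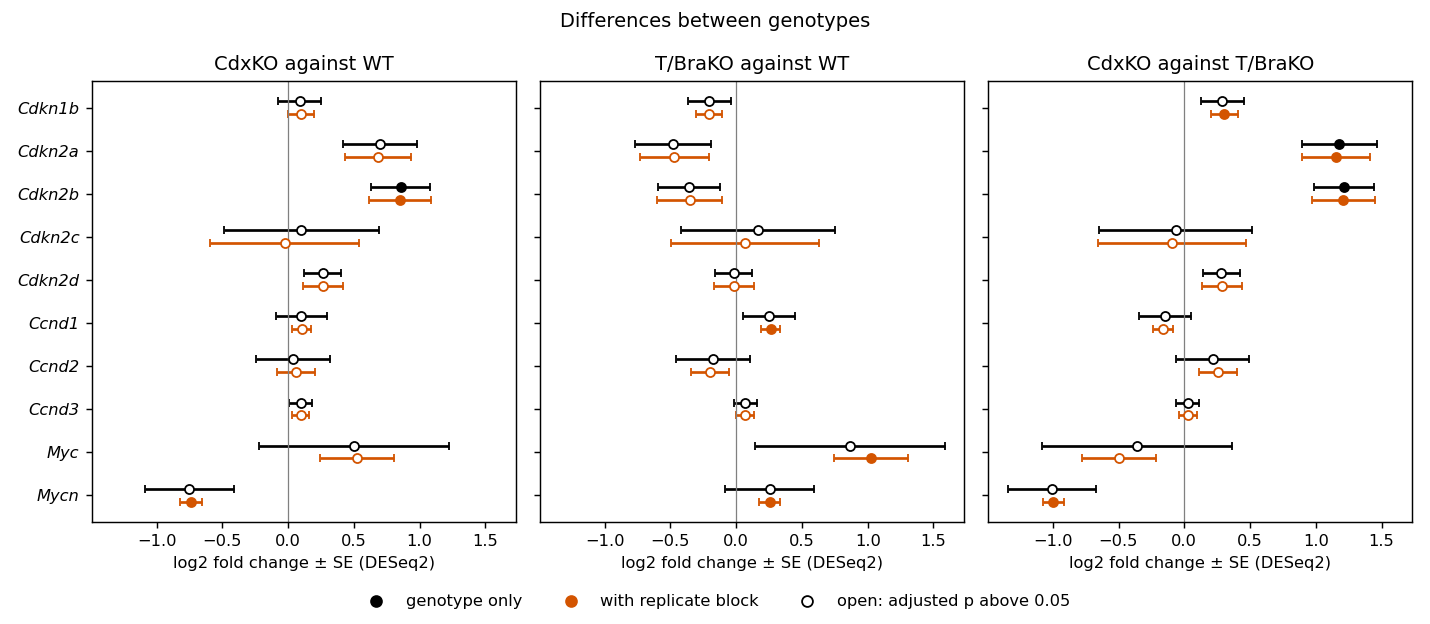
Log2 fold change ± SE from DESeq2 (horizontal axis) of the 10 genes in the 3 comparisons, with genotype alone (black) and with the replicate block (orange); filled symbols had an adjusted p of at most 0.05. Cdkn2b was called in both fits in CdxKO against WT (log2 fold change 0.85 in each), while Mycn was called there only with the block (-0.74).

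Cdkn2b encodes p15INK4b, an inhibitor induced in many cells by TGF-beta. Its levels in replicates 1, 2 and 3 were 5.31, 3.78 and 4.77 TPM in WT. They were 9.68, 8.01 and 7.36 TPM in CdxKO and 3.57, 3.96 and 3.01 TPM in T/BraKO. Every CdxKO library was thus above every library of the other genotypes, while WT and T/BraKO overlapped. In normalised counts the means were 159 ± 22.5 (SD, n = 3) in CdxKO, 87.7 ± 15.3 in WT and 68.2 ± 8.48 in T/BraKO. Cdkn2b was 1.81-fold higher in CdxKO than in WT (log2 fold change 0.85, SE 0.22, DESeq2 adjusted p 0.0267; with the block 0.00961), higher in 3 of 3 replicate numbers. Without the block edgeR did not call it (adjusted p 0.381), whereas with the block it did (0.0186). The call against WT held in 2 of 9 fits that left out 1 library without the block, those without T/BraKO replicate 2 or 3, with adjusted p up to 0.526. With the block it held in 4 of 9, and was lost without WT replicate 1 or 2 or any 1 of the CdxKO libraries. Against T/BraKO the difference was 2.32-fold (log2 fold change 1.21, SE 0.23, DESeq2 adjusted p 1.28e-05), and it was called in all 26 alternative fits. T/BraKO and WT did not differ beyond the spread (log2 fold change -0.36, adjusted p 1).

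Cdkn2a, whose products p16INK4a and p19ARF act on CDK4 and CDK6 and on the p53 regulator MDM2, had the same order of group means as Cdkn2b. Its levels in replicates 1, 2 and 3 were 8.60, 5.83 and 7.78 TPM in WT. They were 15.9, 12.0 and 8.46 TPM in CdxKO and 5.65, 5.15 and 4.93 TPM in T/BraKO. T/BraKO was below all other libraries, and CdxKO replicate 3 lay within the WT range. Cdkn2a was 2.27-fold higher in CdxKO than in T/BraKO (DESeq2 adjusted p 0.00202; with the block 0.000173; log2 fold change 1.18, SE 0.29), higher in 3 of 3 replicate numbers. Without CdxKO replicate 1 the adjusted p was 0.0555 with genotype alone, and edgeR without the block gave 0.0650. The log2 fold change against WT was 0.70 in CdxKO (adjusted p 0.530; with the block 0.0989) and -0.48 in T/BraKO (adjusted p 1; with the block 0.300), neither of which passed. The ratio of Cdkn2a to Cdkn2b in TPM stayed between 1.15 and 1.64 over the 9 libraries. By the root mean square difference of centred log2(normalised count + 1) over the 9 libraries, Cdkn2b was the most like Cdkn2a of 2145 genes (0.174), followed by Vim (0.201) and Cav1 (0.234). The most like Cdkn2b were Cdkn2a, Vim (0.193) and Usp29 (0.195). Vim encodes the intermediate filament vimentin and Cav1 the caveolar protein caveolin 1. Mtap, the next protein-coding gene beyond Cdkn2a, was chosen after its values were seen and had a log2 fold change of 0.00 in CdxKO and -0.09 in T/BraKO against WT.

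Cells cultured on fibroblasts can carry some of these over, and cultured fibroblasts express Cdkn2a and Cdkn2b. Over 12 fibroblast markers, the summed level was 54.0 to 117 TPM in WT, 71.2 to 149 TPM in CdxKO and 48.0 to 97.3 TPM in T/BraKO. The ranges overlap, but at each of the 3 replicate numbers the sum was highest in CdxKO and lowest in T/BraKO (108, 91.3 and 77.6 TPM in CdxKO, WT and T/BraKO at replicate 1, 149, 117 and 97.3 TPM at replicate 2, and 71.2, 54.0 and 48.0 TPM at replicate 3). Cdkn2a had this order at all 3 replicate numbers, and Cdkn2b at replicates 1 and 3. Within each genotype, the sum was highest at replicate 2 and Cdkn2a was highest at replicate 1. Cdkn2b was highest at replicate 1 in WT and CdxKO and at replicate 2 in T/BraKO, and in WT both genes were lowest at replicate 2. The markers Acta2 and Thy1 made up a large part of the sum. Their means were 32.8 and 20.0 TPM in WT, 44.4 and 11.9 TPM in CdxKO and 25.7 and 26.9 TPM in T/BraKO. The collagen gene Col1a1 was highest at replicate 2 in WT and CdxKO (18.5 and 35.5 TPM) but at replicate 1 in T/BraKO (8.43 TPM). Between CdxKO and T/BraKO, 3 of the 11 fibroblast markers tested were higher in CdxKO and 1 was lower with genotype alone (background 3.49%). With the block 5 of 11 were higher and 1 lower (background 14.7%). Col1a1, a collagen of fibroblasts, had 25.1 ± 9.78 TPM (SD, n = 3) in CdxKO and 6.52 ± 2.24 TPM in T/BraKO (log2 fold change 1.91, DESeq2 adjusted p 2.31e-05). Col1a2 and Postn were also higher (log2 fold changes 1.26 and 3.89, adjusted p 0.0266 and 1.35e-05), although Postn reached at most 3.44 TPM. Thy1, a fibroblast surface protein, was lower in CdxKO (log2 fold change -1.20, adjusted p 1.99e-05). Fap was listed at 0 in 8 of 9 libraries and Lum did not exceed 0.29 TPM. Against WT, 0 of 11 markers were called higher and 0 lower in CdxKO with genotype alone (background 0.695%). With the block 3 were higher and 1 lower of 9 (background 5.37%). In T/BraKO, 0 were higher and 1 of 12 lower with genotype alone (background 1.08%). With the block 0 were higher and 5 lower of 8 (background 9.43%). Markers of paraxial mesoderm also differed. Over 6 of them, the summed level was 65.3 to 118 TPM in WT, 44.3 to 136 TPM in CdxKO and 25.2 to 27.9 TPM in T/BraKO. With genotype alone, T/BraKO had 1 of these 6 markers called higher and 4 lower against WT. Between the mutants, 4 were higher in CdxKO and 0 lower. The parts of fibroblasts and of mesoderm cells in the Cdkn2a, Cdkn2b and fibroblast marker levels were not tested. In bulk RNA, fewer cells of a type and less RNA per cell cannot be told apart.

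**Figure D4:**
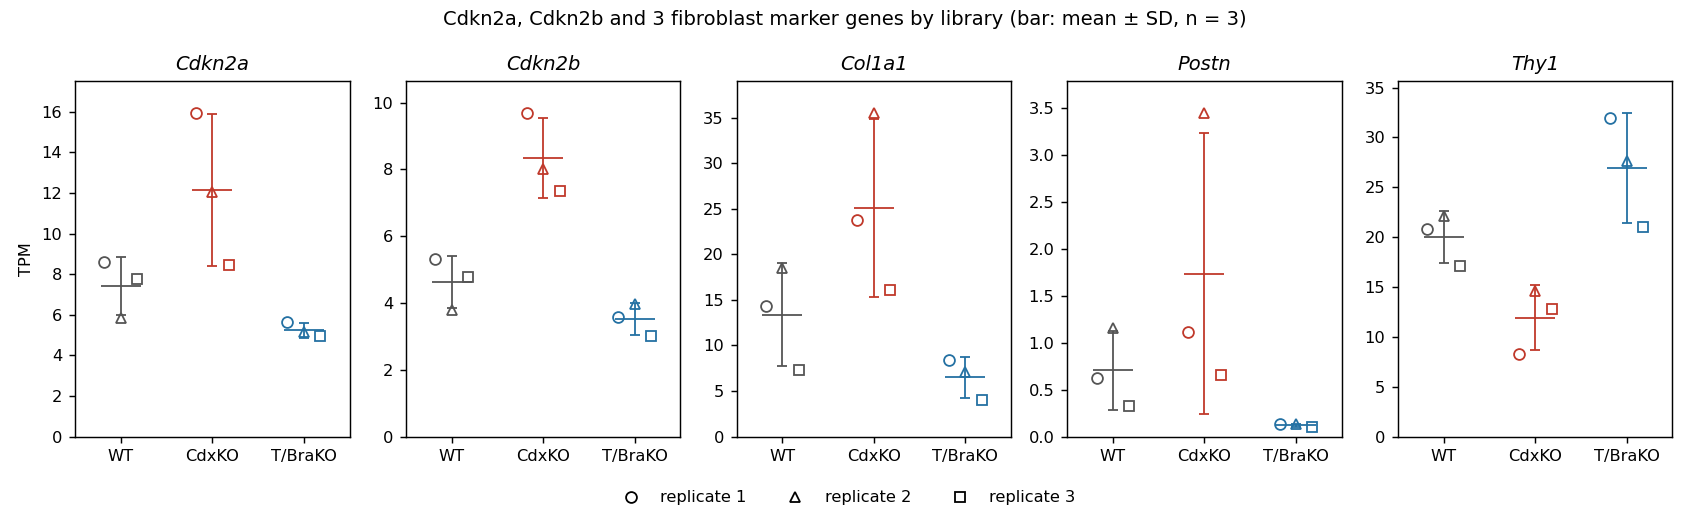
Levels in TPM (vertical axis, linear, from 0) of Cdkn2a, Cdkn2b and 3 fibroblast marker genes in the libraries of each genotype; symbols mark replicate numbers and bars the mean ± SD of 3 libraries. Col1a1 and Postn shared the order CdxKO, WT, T/BraKO of their means with Cdkn2a and Cdkn2b, and Thy1 had the reverse order.

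Of the 10 genes, the remaining inhibitors Cdkn1b, Cdkn2d and Cdkn2c were not called with genotype alone over all libraries. Cdkn1b, which encodes p27, had 28.9, 37.9 and 28.5 TPM in WT replicates 1, 2 and 3. It had 34.4, 34.3 and 32.1 TPM in CdxKO and 24.0, 33.1 and 23.6 TPM in T/BraKO. Replicate 2 was the highest in WT and T/BraKO, and the groups overlapped. Cdkn1b was higher in CdxKO than in T/BraKO with the block only (log2 fold change 0.31, DESeq2 adjusted p 0.0209; genotype alone 0.549), and this held in 3 of 9 blocked fits that left out 1 library, those without replicate 2 of any genotype. Its most similar genes were Sulf1 (0.156), Zc2hc1a (0.158) and 1110019D14Rik (0.161), against a spread of Cdkn1b about its own mean of 0.204. Cdkn2d, which encodes p19INK4d, had 16.0 to 16.5 TPM in CdxKO, 12.1 to 14.6 TPM in WT and 11.8 to 14.6 TPM in T/BraKO. CdxKO lay above both other groups, but the log2 fold changes of 0.26 against WT and 0.28 against T/BraKO did not pass (adjusted p 1 and 0.422). Cdkn2c, which encodes p18INK4c, was below 1.3 TPM in every library, and differences between genotypes were not detectable at 8 to 26 counts.

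Of the D cyclins, Ccnd1 had 115, 81.6 and 111 TPM in WT, 135, 90.7 and 104 TPM in CdxKO and 124, 102 and 131 TPM in T/BraKO. The groups overlapped, and T/BraKO was above WT at each replicate number. Ccnd1 was 1.20-fold higher in T/BraKO than in WT with the block (log2 fold change 0.26, SE 0.08, DESeq2 adjusted p 0.00949) but not with genotype alone (adjusted p 1) or in edgeR with the block (0.0572), and the blocked call held in 5 of 9 fits that left out 1 library. It was lost without WT replicate 1 or 2 and without T/BraKO replicate 2 or 3. Among the 3 genes most like Ccnd1 were Dhrs11 (0.138) and Tigd5 (0.146), against a spread of Ccnd1 about its own mean of 0.243.

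Ccnd2 had 230, 140 and 215 TPM in WT, 249, 165 and 184 TPM in CdxKO and 196, 106 and 201 TPM in T/BraKO. It made up 32.9% to 49.0% of the summed D cyclin TPM. No comparison of Ccnd2 passed with genotype alone or with the block over all libraries, and the 95% interval of its log2 fold change against WT was -0.51 to 0.59 in CdxKO and -0.73 to 0.37 in T/BraKO. Ccnd3 had the narrowest range, from 113 to 132 TPM over the 9 libraries. Its interval against WT was -0.07 to 0.26 in CdxKO and -0.10 to 0.24 in T/BraKO on the log2 scale, and no comparison passed.

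Mycn had 47.0, 25.3 and 48.7 TPM in WT replicates 1, 2 and 3, 24.95, 16.1 and 30.6 TPM in CdxKO and 51.7, 29.6 and 59.6 TPM in T/BraKO. The ranges overlapped because replicate 2 was low in each genotype, but CdxKO was the lowest and T/BraKO the highest at each replicate number. Log2 ratios of CdxKO to WT at replicate numbers 1, 2 and 3 were -0.90, -0.65 and -0.67 in normalised counts, and those of CdxKO to T/BraKO were -1.08, -0.91 and -0.99. With the block, Mycn was lower in CdxKO than in WT (log2 fold change -0.74, SE 0.08, DESeq2 adjusted p 1.03e-16) and than in T/BraKO (-0.99, SE 0.08, adjusted p 1.65e-31), and both calls held in 9 of 9 blocked fits that left out 1 library. Without the block the adjusted p was 0.748 and 0.0729. EdgeR with the block also called both (adjusted p 0.000143 and 8.92e-06). Mycn was 1.19-fold higher in T/BraKO than in WT with the block (log2 fold change 0.25, adjusted p 0.0209; genotype alone 1), which held in 4 of 9 such fits. It was lost without any 1 of the T/BraKO libraries and without WT replicate 2 or 3. Among the 3 genes most like Mycn were Sema6a (0.216) and Adcyap1r1 (0.219), against a spread of Mycn about its own mean of 0.606.

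Myc had 16.7, 5.99 and 26.0 TPM in WT, 26.5, 8.50 and 34.0 TPM in CdxKO and 24.0, 18.1 and 44.9 TPM in T/BraKO. Replicate 2 was the lowest and replicate 3 the highest in each genotype. Both mutants were above WT at each replicate number, with log2 ratios of normalised counts of 0.68, 0.51 and 0.38 in CdxKO and 0.57, 1.63 and 0.81 in T/BraKO. In T/BraKO Myc was 2.03-fold higher than in WT with the block (log2 fold change 1.02, SE 0.28, DESeq2 adjusted p 0.00587; genotype alone 1; edgeR with the block 0.0137). The blocked call held in 6 of 9 fits that left out 1 library and was lost without WT replicate 1, WT replicate 2 or T/BraKO replicate 3. In CdxKO it did not pass with the block over all libraries (log2 fold change 0.53, DESeq2 adjusted p 0.375), but it did with the block in the 6 libraries compared (0.52, adjusted p 0.00152) and in the blocked fits without T/BraKO replicate 1 (adjusted p 0.0328) or 2 (0.000448). The difference between CdxKO and T/BraKO did not pass in the blocked fit to all libraries (log2 fold change -0.50, adjusted p 0.257). The share of Mycn in the summed TPM of Myc and Mycn was 65.2% to 80.8% in WT, 47.4% to 65.4% in CdxKO and 57.1% to 68.3% in T/BraKO. The genes most like Myc were Epha2 (0.252), Etv4 (0.268) and Kcnk2 (0.305), against a spread of Myc about its own mean of 0.898. Etv4 is a transcription factor induced by FGF signalling, and Epha2 is an ephrin receptor.

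Other genes of the pathway were taken from fixed lists. Among the other CDK inhibitors (Cdkn1a, Cdkn1c and Cdkn3), Cdkn1c, which encodes p57 and is an imprinted gene, had 50.8, 33.1 and 52.0 TPM in WT and 41.6, 31.9 and 33.6 TPM in T/BraKO, but only 1.28, 1.41 and 1.09 TPM in CdxKO. It fell by 5.16 on the log2 scale in CdxKO against WT (SE 0.25, DESeq2 adjusted p 1.82e-87) and was the 1 gene of that list called lower against either group. Cdkn1a, which encodes p21 and was named after its values were seen, had a higher level than any of the 10 genes, at 272 to 506 TPM. It was higher in CdxKO than in WT with the block only (log2 fold change 0.49, adjusted p 0.0245; genotype alone 0.0983).

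Some of the replication genes that E2F factors activate were lower in CdxKO than in T/BraKO. With genotype alone 0 of 16 were higher and 2 were lower, Mcm4 (log2 fold change -0.19, DESeq2 adjusted p 0.0430) and Mcm6 (-0.23, 0.0322), which encode subunits of the replicative helicase, while edgeR without the block called 0. With the block 0 were higher and 9 lower, beside 14.7% of all genes tested (3.49% with genotype alone). The median blocked log2 fold change was -0.15 in the list and -0.01 over all genes tested. Of 15 genes that MYC activates for ribosome production and growth, DESeq2 with genotype alone called 0 in each comparison, where 0, 1 and 1 had an unadjusted p under 0.05 in CdxKO against WT, T/BraKO against WT and CdxKO against T/BraKO, and edgeR also called 0. With the block 9 of 15 were higher in T/BraKO than in WT (background 9.43%) and 12 of 15 lower in CdxKO than in T/BraKO (background 14.7%). In CdxKO against WT 2 of 15 were lower with the block (background 5.37%). The blocked medians of the list were 0.17, -0.23 and -0.06 on the log2 scale, beside 0.02, -0.01 and -0.00202 over all genes tested. Odc1 and Srm, polyamine synthesis enzymes chosen after their values were seen, had blocked log2 fold changes of 0.34 and 0.36 in T/BraKO against WT (adjusted p 5.71e-07 and 2.13e-06). Of 12 mitosis genes, 13 RB and E2F factors, 10 kinases and activators, 7 E, A and B cyclins, 10 MYC partners and 10 turnover factors, DESeq2 with genotype alone called 0 in each comparison and edgeR without the block also called 0. An unadjusted p under 0.05 was reached by at most 2 genes of any of these lists. With the block, the number called in any of these lists and either direction was at most 2.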

How the data were processed

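Poly(A) RNA of the 9 cultures was sequenced as single-end, strand-specific reads. Per the methods and processing notes of the study, the authors trimmed reads with cutadapt 1.16 and used STAR 2.5.2a and RSEM 1.3.0 with RefSeq genes of mm10. The authors deposited expected counts (RSEM's estimates per gene) and TPM for each library, and no per-sample column was left unmapped. Expected counts of the 10 genes were whole in every library. Libraries were grouped by genotype and replicate number from their titles.

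The deposited expected counts were rounded and tested with the DESeq2 1.42.0 Wald test in R 4.3.3, with genotype as the only term, all 9 libraries, unshrunken log2 fold changes and a Benjamini-Hochberg adjusted p of at most 0.05 over all genes tested. Independent filtering was set for 0.05. Its default of 0.1 was run too, before this setting was kept, and called the same number of the 10 genes in each comparison. Alternatives were the replicate number as a block, edgeR 4.0.16 (quasi-likelihood), TMM factors, a filter of 10 counts in 3 libraries, the 6 libraries compared, and leaving out each library. Fits of edgeR with the block, of 6 libraries with the block and of the block without each library, and the default filtering, were added after the data were seen. TPM values were not tested. P-values set a difference between genotypes against the spread between these cultures. They do not cover the spread between lines of the same genotype.

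Deviations of same-numbered libraries from their genotype means correlated at 0.532 to 0.814 over the 9 pairs (12316 genes with at least 50 normalised counts on average), so the numbers from the titles were taken to pair the samples. Genes are not independent replicates. Within-genotype pairs differed by at least 36.9 times the variance of counting, so no library was taken as a duplicate. A floor of 3 counts corresponds to 0.0864 to 0.119 CPM, covering counting error only. The DESeq2 and edgeR fits were also run on simulated counts, with changes placed only in genes with at least 50 normalised counts on average. These runs do not cover changes in Cdkn2c, and their outcome is not given here.

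The 10 genes, the lists and the tests were chosen with earlier results of these data known. Named were the 10 genes, the targeted genes, list genes called with genotype alone, and, for each of the 10 called in any comparison, the 3 genes with the smallest root mean square difference among genes with at least 50 normalised counts and a log2 range of at least 1. Other genes are marked, and some results for single genes named by this rule are omitted here. Promoters and coordinates came from RefSeq on GRCm38.p6, the same assembly as mm10, counted from 1. Promoter windows were found for 7 of the 10 genes.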

Additional observations from a re-analysis of the deposited data

Results flagged for a closer look

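Cdkn2a and Cdkn2b are listed here because the effects of CdxKO and T/BraKO differed in the direct DESeq2 test of both mutants. The log2 fold change of CdxKO against T/BraKO was 1.18 for Cdkn2a and 1.21 for Cdkn2b. Each was higher in CdxKO at 3 of 3 replicate numbers. Set against WT, Cdkn2a had log2 fold changes of 0.70 (CdxKO) and -0.48 (T/BraKO), and Cdkn2b had 0.85 and -0.36. Groups of 3 libraries were not tested for single libraries far from the others.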

How the results depend on the processing

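With genotype alone, DESeq2 called 1, 0 and 2 of the 10 genes in CdxKO against WT, T/BraKO against WT and CdxKO against T/BraKO. The replicate block moved these counts to 2, 3 and 4, edgeR to 0, 0 and 1, edgeR with the block to 2, 2 and 4, the 6 libraries compared to 0, 0 and 3, and those with the block to 3, 4 and 3. TMM factors, the filter on low counts and independent filtering at 0.1 left the counts at 1, 0 and 2. Leaving out 1 library gave 0 to 1, 0 to 0 and 1 to 4 calls with genotype alone and 1 to 3, 0 to 4 and 3 to 5 with the block. Over all genes tested, DESeq2 on 9 libraries called 0.695%, 1.08% and 3.49% with genotype alone. With the block these shares were 5.37%, 9.43% and 14.7%, so the block raised calls across all genes and not only in these 10. Shares over all genes are not given here for the other fits. Ratios of mean TPM and of mean CPM kept every value within the spread between replicates. No value that was called with genotype alone over all 9 libraries turned its direction, and each value with the turned sign was itself not called, although Ccnd2 (T/BraKO against WT, and between the mutants) and Myc (between the mutants) were called in other alternatives. Cdkn2c in CdxKO against WT was -0.026 with the block and -0.013 in the 6 libraries compared with the block. Leaving out 1 library, with or without the block, took Cdkn2c from -0.39 to 0.48 in CdxKO against WT, from -0.29 to 0.51 in T/BraKO against WT and from -0.38 to 0.31 between the mutants. Ccnd2 went from -0.16 to 0.22, from -0.38 to 0.069 and from -0.033 to 0.43 in the same comparisons. Against WT, Ccnd1 went from -0.071 to 0.23 in CdxKO and Cdkn2d from -0.097 to 0.045 in T/BraKO. Between the mutants, Ccnd3 went from -0.041 to 0.073 and Myc from -0.77 to 0.11. The cause of these changes was not tested. Counts of 8 to 26 limit what can be said of Cdkn2c.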
